A study of Mus musculus with 58 samples.

Results

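Whether fluoxetine changed the prefrontal cortex transcriptome by the same amount in mice heterozygous for Kmt5b and in wild-type mice was read from 40 of the 58 libraries of the study, 10 in each of 4 groups. The quantity is a difference of differences on the log2 scale, fluoxetine minus vehicle in heterozygotes (HT) minus the same in wild types (WT), with 5 females and 5 males in every group. A positive value means that the effect of fluoxetine was more upward, or less downward, in HT than in WT. It was estimated for the 16669 genes, of 18088 in the table, whose mean normalised count was at least 10, and 7 of them differed between genotypes after adjustment. The spread was estimated from all 58 libraries, and none of the 7 passed in a fit of the 40 alone.

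The animals were C57BL/6J mice. The HT fluoxetine and HT vehicle groups carried 1 altered copy of Kmt5b by the genotype label, and the WT fluoxetine and WT vehicle groups none. Pups of all 4 groups were exposed through their mother's milk for 3 weeks, from postnatal day 3 to 24, either to fluoxetine or to vehicle, and prefrontal cortex was collected on day 25. The labels give neither the altered exons of Kmt5b, nor a dose, nor litters. Replicates are separate samples by their labels, but milk reaches a whole litter, so the p values measure the spread between these samples. The lithium libraries of the study, 10 HT and 8 WT, entered only the estimate of the spread.

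Fluoxetine blocks the serotonin transporter, and serotonin acts on neurons, glia and vessels of the developing cortex. Kmt5b encodes a methyltransferase that writes the higher methylated forms of lysine 20 on histone H4, a mark of silent chromatin, and heterozygous loss of the human gene is linked to neurodevelopmental disorder. An interaction between a drug and a genotype asks for genes where both act together, which neither the drug effect nor the genotype effect shows by itself. Several of the genes that passed here belong to microglia, the resident macrophages of the brain, which clear material through lysosomal enzymes, and to the endothelium of the blood-brain barrier, which carries transporters and sphingolipid receptors.

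Among the 7 genes, promoters are shown for the transporter Slco1a4, which had the smallest p, and for the myeloid genes Ctss and Mpeg1. RefSeq promoters on GRCm38.p6 were at hand for 5 of the 7. Each sequence holds the 250 bases before the annotated start, 5′ to 3′ along the gene's strand, at chr6:141856221-141856470 (minus strand), chr3:95526536-95526785 (plus strand) and chr19:12460520-12460769 (plus strand). Capitals mark GAGGAA or its reverse complement TTCCTC, the core bound by the myeloid factor PU.1 and by other ETS proteins.
Slco1a4: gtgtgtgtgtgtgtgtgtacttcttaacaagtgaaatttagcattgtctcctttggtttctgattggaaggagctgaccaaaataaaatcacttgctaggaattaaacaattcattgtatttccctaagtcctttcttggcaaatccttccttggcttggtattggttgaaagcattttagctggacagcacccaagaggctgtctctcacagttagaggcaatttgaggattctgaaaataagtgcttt
Ctss: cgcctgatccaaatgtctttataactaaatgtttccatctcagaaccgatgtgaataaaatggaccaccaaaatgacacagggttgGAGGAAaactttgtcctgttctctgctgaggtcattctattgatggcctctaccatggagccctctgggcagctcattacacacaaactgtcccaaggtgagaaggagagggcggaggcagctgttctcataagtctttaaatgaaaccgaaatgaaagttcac
Mpeg1: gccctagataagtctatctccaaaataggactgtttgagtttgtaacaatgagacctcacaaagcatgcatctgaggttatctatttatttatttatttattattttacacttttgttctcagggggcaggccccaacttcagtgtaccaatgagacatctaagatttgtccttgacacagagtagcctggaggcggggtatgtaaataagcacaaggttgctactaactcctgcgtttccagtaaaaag
These letters were in 2 of the 5 promoters, those of Ctss and Gpc5, against 22.2% of the 12087 promoters of genes tested and 23.1% of all 27025 promoters of that length on either strand. The windows of Slco1a4 and Mpeg1 did not hold them.

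Recovered reads lay between 23.9 and 34.0 M per library in the 40 libraries, with a median of 27.7 M. Kmt5b (ENSMUSG00000045098, chromosome 19, 3767421 to 3818303, GRCm38), read first as a check of the labels, had 1579, 1726 and 2008 normalised counts (lowest, median and highest) in HT fluoxetine and 1576, 1697 and 1831 in HT vehicle. It had 1497, 1748 and 1956 in WT fluoxetine and 1428, 1587 and 1797 in WT vehicle. All 4 groups overlapped, and the mean was 1749.5 ± 128 in HT fluoxetine against 1741 ± 124 in WT fluoxetine and 1709 ± 90.2 in HT vehicle against 1616 ± 119 in WT vehicle (SD, n = 10 each), and neither HT mean was the lower one. Here HT and WT stand for libraries labelled so, and the direction of every interaction below rests on those labels. Kmt5b itself had an interaction of -0.08 (SE 0.0604, limma adjusted p = 0.665). The level of 4 olfactory bulb genes (Cdhr1, Tbx21, Doc2g and Eomes, a mean of standardised log2 values) was below -1 in 3 of 10 HT fluoxetine, 0 of 10 HT vehicle, 1 of 10 WT fluoxetine and 3 of 10 WT vehicle libraries. Without the 4 libraries lowest in that level, 0 genes passed for the interaction by limma, and without the 4 highest 6 did, settings chosen after seeing the data. The slope of a library's log2 deviation on log2 exon length had medians of 0.0018 in HT fluoxetine, -0.0104 in HT vehicle, 0.0212 in WT fluoxetine and -0.0333 in WT vehicle, and with it in the model 12 genes passed. The plot of library measures shows these levels by group.

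**Figure D1:**
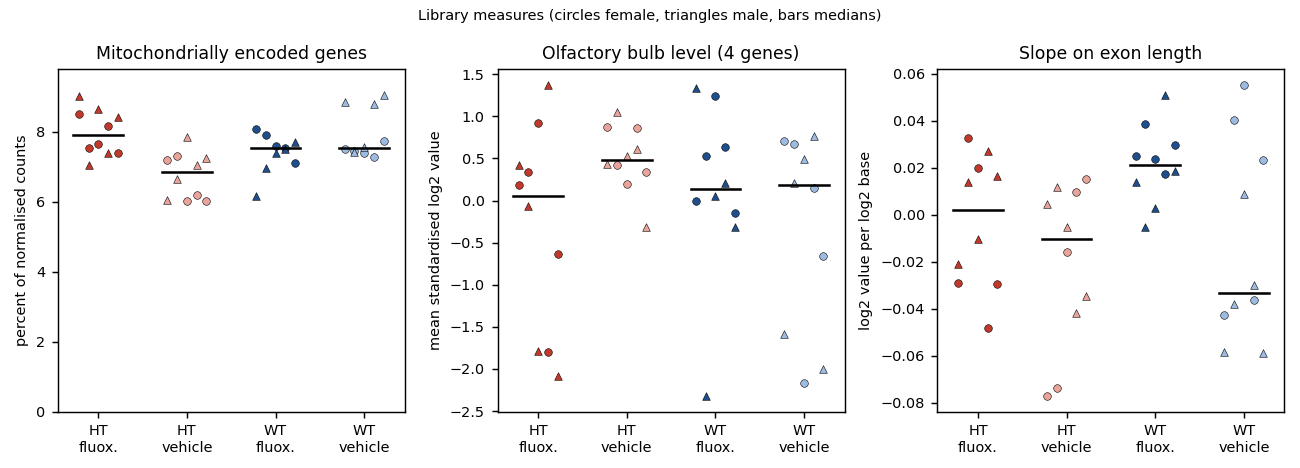
Share of normalised counts from mitochondrially encoded genes (percent, left), mean standardised log2 value of 4 olfactory bulb genes (middle) and slope of a library's log2 deviation on log2 exon length (right) for each of the 40 libraries, with the group median as a bar, circles for females and triangles for males. The mitochondrial share had medians of 7.89% in HT fluoxetine against 6.84% in HT vehicle, and 7.52% in WT fluoxetine against 7.53% in WT vehicle.

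The difference of differences was positive at an adjusted p under 0.05 in 7 of 16669 genes, a background of 0.042%, and negative in 0. Slco1a4, Mpeg1, Nr2e1, S1pr1, Ctss and Gpc5 are described here, and in each of these 6 the change under fluoxetine was upward or near 0 in HT and downward in WT. At an unadjusted p under 0.05 there were 925 positive genes (5.55%) and 933 negative genes (5.6%), and the median over all genes was 0.00. For the count of 0 in the negative direction, edgeR on 54 libraries also gave 0, DESeq2 gave 5 and limma with array weights 76. Of 40 fits that left out 1 library, 6 had a gene that passed lower, with 9 without HT fluoxetine male 4, 6 without HT fluoxetine female 3 and 2 without HT vehicle female 2. In a fit of the 40 libraries alone 0 genes passed, and without any 1 library the count ranged from 1 to 46. The plot of the 6 genes by library shows all of their values.

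Slco1a4, an organic anion transporter of brain endothelium (ENSMUSG00000030237, chromosome 6, 141805440 to 141856199), moved in opposite directions. It had 1377, 1667 and 1864 normalised counts (lowest, median and highest) in HT fluoxetine, against 1158, 1352 and 1564 in HT vehicle. In WT fluoxetine it had 1284, 1489 and 1663, against 1443, 1664 and 2097 in WT vehicle. All 10 HT fluoxetine libraries lay above the HT vehicle median and 6 above its highest library, while all 10 WT fluoxetine libraries lay below the WT vehicle median. Slco1a4 rose by 0.29 on the log2 scale in HT (limma adjusted p = 0.00097) and fell in WT, with a log2 change of -0.18 (adjusted p = 0.0431). The interaction was 0.47 (SE 0.0814, 95% confidence interval 0.30 to 0.63, limma adjusted p = 0.00887). HT minus WT was 0.12 under fluoxetine and -0.35 under vehicle. Slco1a4 passed in each of 40 fits that left out 1 library and in 15 of 18 other settings. It did not pass in the 40 libraries alone (limma adjusted p = 0.0562), without the 4 libraries lowest in olfactory bulb level (adjusted p = 0.121) and by limma on 54 libraries (adjusted p = 0.0716).

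**Figure D2:**
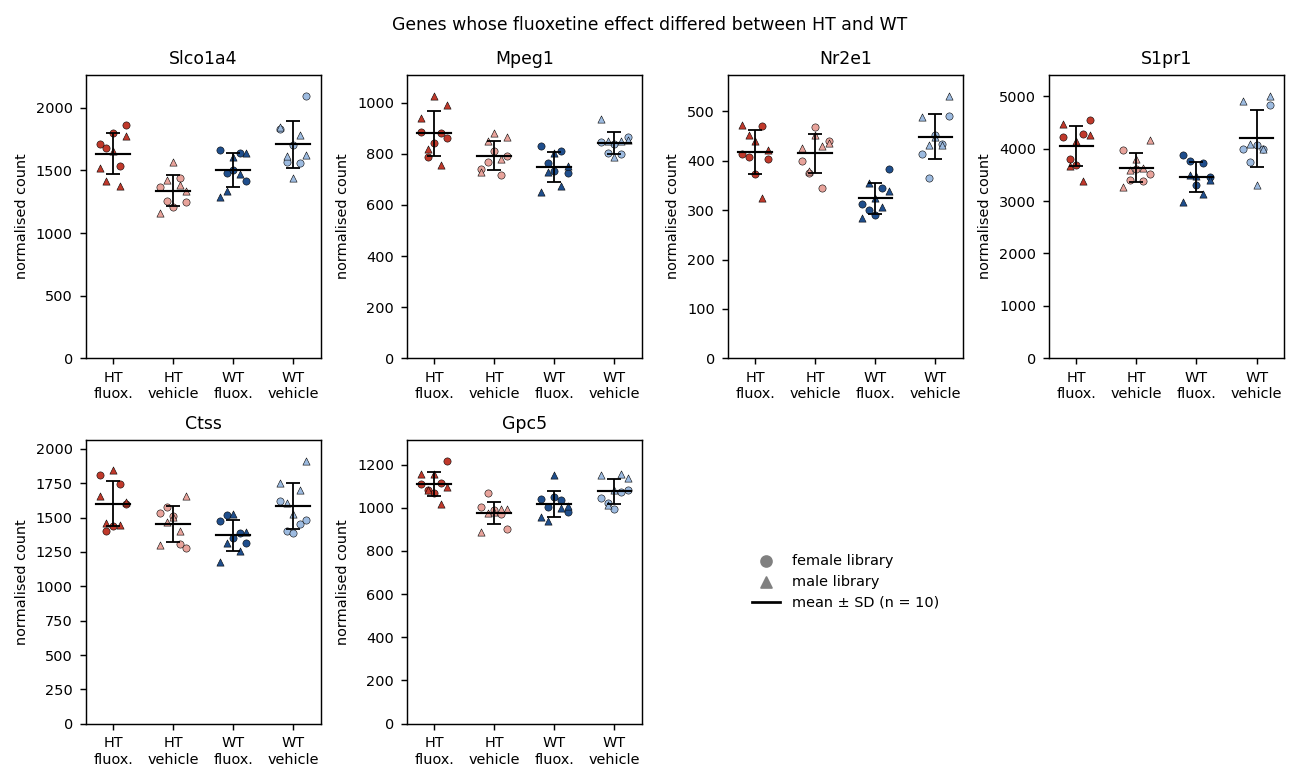
Normalised counts in each library for 6 of the 7 genes that passed, by group, with circles for females, triangles for males, and the mean ± SD (n = 10) as a bar with whiskers. In all 6 panels the WT fluoxetine mean lies below the WT vehicle mean, and the HT fluoxetine mean lies above the HT vehicle mean, by the least in Nr2e1 with 418 ± 45.0 in HT fluoxetine and 415 ± 38.8 in HT vehicle.

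Mpeg1 and Ctss, both expressed by microglia, had positive interactions. In bulk tissue fewer cells of a type and less RNA per cell cannot be told apart. Mpeg1, a perforin-like protein of macrophages (ENSMUSG00000046805, chromosome 19, 12460779 to 12465283), had 757, 871 and 1028 normalised counts in HT fluoxetine, against 718, 785 and 883 in HT vehicle. Its WT fluoxetine libraries had 649, 741 and 832, against 788, 849 and 936 in WT vehicle. Mpeg1 and Slco1a4 were the 2 genes that rose in HT and fell in WT. For Mpeg1 9 of 10 HT fluoxetine libraries lay above the HT vehicle median, and 7 of 10 WT fluoxetine libraries lay below every WT vehicle library. The changes were 0.15 in HT (limma adjusted p = 0.0292) and -0.18 in WT (adjusted p = 0.013), and the interaction was 0.32 (SE 0.0652, 95% interval 0.19 to 0.45, adjusted p = 0.0384). Ctss, the lysosomal cysteine protease cathepsin S (ENSMUSG00000038642, chromosome 3, 95526786 to 95556403), had 1399.8, 1606 and 1846 in HT fluoxetine, against 1276, 1487 and 1659 in HT vehicle, and 1178, 1372 and 1526 in WT fluoxetine, against 1391, 1566 and 1913 in WT vehicle. Ctss fell in WT, where all 10 fluoxetine libraries lay below the vehicle median, and the ranges overlapped in both genotypes. Its changes were 0.14 in HT (limma adjusted p = 0.0609) and -0.20 in WT (adjusted p = 0.00925), with an interaction of 0.34 (SE 0.0719, 95% interval 0.20 to 0.49, adjusted p = 0.0403).

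Nr2e1, an orphan nuclear receptor of neural stem cells also called Tlx (ENSMUSG00000019803, chromosome 10, 42561963 to 42583632), fell in WT and had a value near 0 in HT. It had 325, 418 and 472 normalised counts in HT fluoxetine, against 346, 427 and 469 in HT vehicle. Its WT fluoxetine libraries held 285, 318 and 383, against 365, 441 and 532 in WT vehicle. In WT 9 of 10 fluoxetine libraries lay below every vehicle library, while the HT groups covered nearly the same range. The log2 change was 0.01 in HT (limma adjusted p = 0.954) and -0.47 in WT (adjusted p = 6.94e-06), and the interaction was 0.48 (SE 0.0967, 95% interval 0.28 to 0.67, adjusted p = 0.0384).

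S1pr1, a sphingosine-1-phosphate receptor of endothelium and astrocytes (ENSMUSG00000045092, chromosome 3, 115710433 to 115715072), fell in WT and did not pass in HT. It had 3389, 4178 and 4543 normalised counts in HT fluoxetine, against 3259, 3601 and 4155 in HT vehicle. Its WT fluoxetine libraries had 2974, 3474 and 3868, against 3298, 4033 and 5010.4 in WT vehicle. All 10 WT fluoxetine libraries lay below the WT vehicle median and 9 of 10 HT fluoxetine libraries above the HT vehicle median. The changes were 0.15 in HT (limma adjusted p = 0.09) and -0.27 in WT (adjusted p = 0.00409), with an interaction of 0.42 (SE 0.0868, 95% interval 0.25 to 0.60, adjusted p = 0.0391). Gpc5, a heparan sulfate proteoglycan of the cell surface (ENSMUSG00000022112, chromosome 14, 115092215 to 116525179), rose in HT and did not pass in WT. It had 1017, 1103 and 1217 in HT fluoxetine, against 886, 985 and 1069.9 in HT vehicle, and 937, 1006 and 1152 in WT fluoxetine, against 996, 1077 and 1157 in WT vehicle. In HT 8 of 10 fluoxetine libraries exceeded every vehicle library, and the ranges overlapped in both genotypes. Gpc5 changed by 0.18 in HT (limma adjusted p = 0.00186) and -0.08 in WT (adjusted p = 0.19), with an interaction of 0.27 (SE 0.0559, 95% interval 0.15 to 0.38, adjusted p = 0.0403).

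The 6 genes differed in how firmly they held. Apart from Slco1a4, each passed in 14 to 22 of the 40 fits that left out 1 library and in 9 to 10 of 18 other settings. With the olfactory bulb level or the striatal level in the model, 1 gene passed, Slco1a4. Over all of these fits the values kept their sign, for example 0.25 to 0.29 for Gpc5, 0.27 to 0.37 for Ctss and 0.35 to 0.52 for Nr2e1. HT minus WT ranged from 0.12 (Slco1a4) to 0.36 (Nr2e1) under fluoxetine and from -0.35 (Slco1a4) to -0.09 (Mpeg1) under vehicle. All 6 were thus higher in HT than in WT in the fluoxetine libraries and lower in the vehicle libraries, as estimates, whose p values are not given here.

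Genes next in rank had positive values that did not pass. Cd33, a sialic acid-binding receptor of myeloid cells, had an interaction of 0.52 (SE 0.116, limma adjusted p = 0.0733). It had 262, 313 and 375 normalised counts in HT fluoxetine, against 179, 233 and 290.3 in HT vehicle, and 227, 266 and 326 in WT fluoxetine, against 227, 310.0 and 386 in WT vehicle. Cd33 rose in HT (0.39, limma adjusted p = 0.00151) and its value in WT was -0.14. Msmo1, a sterol oxidase of cholesterol synthesis, had 1833, 2354 and 2860.0 in HT fluoxetine, against 1851, 2177 and 2841 in HT vehicle, and 1683, 2151 and 2358 in WT fluoxetine, against 2251, 2603 and 3003 in WT vehicle. Msmo1 fell in WT (-0.32, limma adjusted p = 0.00133), its value in HT was 0.08, and the interaction was 0.39 (adjusted p = 0.0895). Btg3, an antiproliferative protein, had 0.47, the mitochondrially encoded mt-Nd3 1.06 and the ETS factor Fli1 0.46, each at a limma adjusted p of 0.0895. Of the 12 genes of smallest p, including the 7 that passed, 7 rose in HT and 7 fell in WT, 2 doing both, beside backgrounds of 6.84% and 3.41% of all genes. The interaction contains both comparisons, so nothing is read from these counts.

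No gene passed with a negative interaction, so genes of smallest p in that direction are given as values. Kcnf1, a modifying subunit of voltage-gated potassium channels, had 4579, 5235 and 5616 normalised counts in HT fluoxetine, against 5581, 6180.2 and 6457 in HT vehicle. In WT fluoxetine it had 5154, 5413 and 6104, against 5211, 5517 and 6211 in WT vehicle. Kcnf1 fell in HT (-0.24, limma adjusted p = 0.000163), where 8 of 10 fluoxetine libraries lay below every vehicle library. In WT its change was -0.02, and the ranges overlapped in both genotypes. Its interaction was -0.23 (SE 0.0578, adjusted p = 0.104). Grik3, a kainate receptor subunit, had 2935, 3783 and 4454 in HT fluoxetine against 3307, 3914 and 5031 in HT vehicle, and 3862, 4259.8 and 5010.0 in WT fluoxetine against 2787, 3731 and 4143 in WT vehicle. Grik3 rose in WT (0.32, limma adjusted p = 0.00494), where all 10 fluoxetine libraries stood above the vehicle median and 7 above its highest library, and its value in HT was -0.10. The interaction of Grik3 was -0.42 (adjusted p = 0.101).

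Sdk2, a synaptic adhesion molecule, had 908, 1508 and 1742 normalised counts in HT fluoxetine and 1052, 1498 and 2021 in HT vehicle. It had 1467, 1813 and 2141 in WT fluoxetine and 969, 1334 and 1526 in WT vehicle. Sdk2 rose in WT (0.52, limma adjusted p = 0.000424), with -0.06 in HT and an interaction of -0.58 (adjusted p = 0.101). Fam216a had 1055, 1103 and 1176 in HT fluoxetine and 1109.8, 1263 and 1336 in HT vehicle, against 1113, 1206 and 1277 in WT fluoxetine and 1081, 1194 and 1252 in WT vehicle. Fam216a fell in HT (-0.19, limma adjusted p = 0.000256), and its interaction was -0.20 (adjusted p = 0.0895). The T-type calcium channel Cacna1g (-0.29), the potassium channel Kcnc1 (-0.24), the neuronal splicing regulator Srrm3 (-0.30) and the death-associated kinase Dapk1 (-0.27) had interactions at adjusted p values of 0.101, 0.115, 0.101 and 0.101 by limma. The topoisomerase Top3a (-0.38), the kinesin family member Kif26b (-0.47) and Dnaaf3 (-1.20), an assembly factor of ciliary dynein with a mean of 17.5 normalised counts, had adjusted p values of 0.109, 0.123 and 0.0895 by limma. Of the 12 genes of smallest p 5 fell in HT and 7 rose in WT, and none did both, beside backgrounds of 5.96% and 3.98%. Here too the interaction contains both comparisons, so nothing is read from these counts.

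Many genes differed between fluoxetine and vehicle in each genotype, most of them without a detectable difference between genotypes. How many did so depended on the processing and on single libraries, as given in the closing section. Fluoxetine raised 1140 genes (6.84%) and lowered 994 (5.96%) in HT, and raised 664 (3.98%) and lowered 568 (3.41%) in WT. The 2 comparisons share no library. They had 445 genes in common, 20.9% of the genes called in HT and 36.1% of those called in WT. Of the 445, 200 rose in both, 243 fell in both, and 2, Slco1a4 and Mpeg1, moved in opposite directions. Genes called in HT had the same sign in WT in 87.1% of cases, and genes called in WT had the same sign in HT in 89.6%. Over all 16669 genes the 2 effects had the same sign in 65.6%, with a Pearson r of 0.25 and a Spearman rho of 0.37 across genes, which are not independent replicates. Of the 445 shared genes 12 had an unadjusted interaction p under 0.05, beside 1858 of all 16669 genes (11.1%). A call in both genotypes, nearly always with the same sign, itself favours a small interaction, so nothing is read from this count. A gene called in 1 genotype only is not shown to differ between them, and the interaction passed in 7 genes alone.

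**Figure D3:**
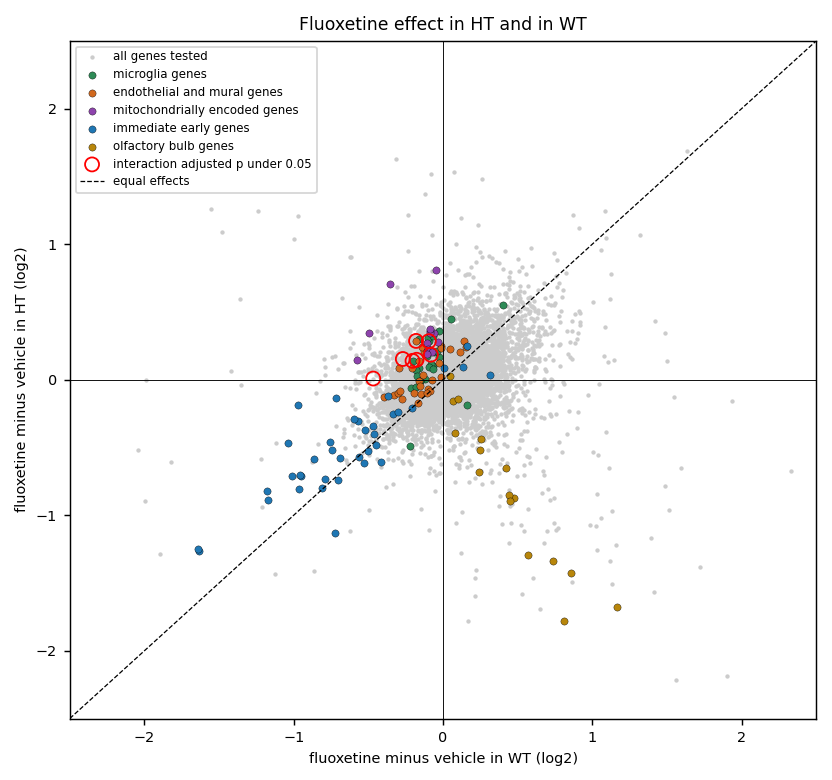
Effect of fluoxetine in HT (vertical) against its effect in WT (horizontal), both as log2 differences from vehicle, for all genes tested in grey, with 5 gene lists in colour, the 7 genes that passed for the interaction ringed and equal effects as a dashed line; 9 genes lie outside the axes. Most immediate early genes lie in the lower left, low in both genotypes, while mitochondrially encoded and microglia genes lie mostly above the dashed line and olfactory bulb genes below it.

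The 8 genes of smallest p in the shared response are given next. Hif3a, a hypoxia-inducible factor subunit that glucocorticoids also induce, had 155, 317 and 383 normalised counts in HT fluoxetine, against 104, 129 and 219 in HT vehicle. Under fluoxetine WT libraries had 263, 380.2 and 448, against 88.7, 147 and 227 in WT vehicle. Hif3a rose in both genotypes (1.07 in HT and 1.32 in WT), and its interaction was -0.25 with a 95% interval of -0.66 to 0.16. Per1, a clock gene that activity and glucocorticoids induce, had 1513, 1957 and 2678 in HT fluoxetine against 2236, 2884 and 3479.7 in HT vehicle, and 1845, 2152 and 2404 in WT fluoxetine against 2471, 3037 and 3568 in WT vehicle. Per1 fell in both (-0.52 and -0.50), and the interval of its interaction was -0.25 to 0.21. Stk40 (-0.39 in HT and -0.43 in WT), Nab2, a corepressor of early growth response factors (-0.57 and -0.56), Klf16 (-0.30 and -0.34), Ier5l (-0.80 and -0.97) and the ephrin Efnb1 (-0.42 and -0.36) fell in both genotypes, and Ccdc141 rose (0.49 and 0.58). These 8 genes were picked for their calls in both genotypes, so the likeness of their values is a description. The narrowest interval of their interactions was that of Klf16, -0.09 to 0.17, and the widest that of Hif3a, and differences within an interval were not detectable.

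Gene lists were read beside the 16669 genes, whose median interaction was 0.00. Of 29 lists, 7 had a median above 0.1 and 6 below -0.1, 2 held a gene that passed, and 4 of the 7 genes that passed were in no list. The plot of interactions by list shows each member.

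**Figure D4:**
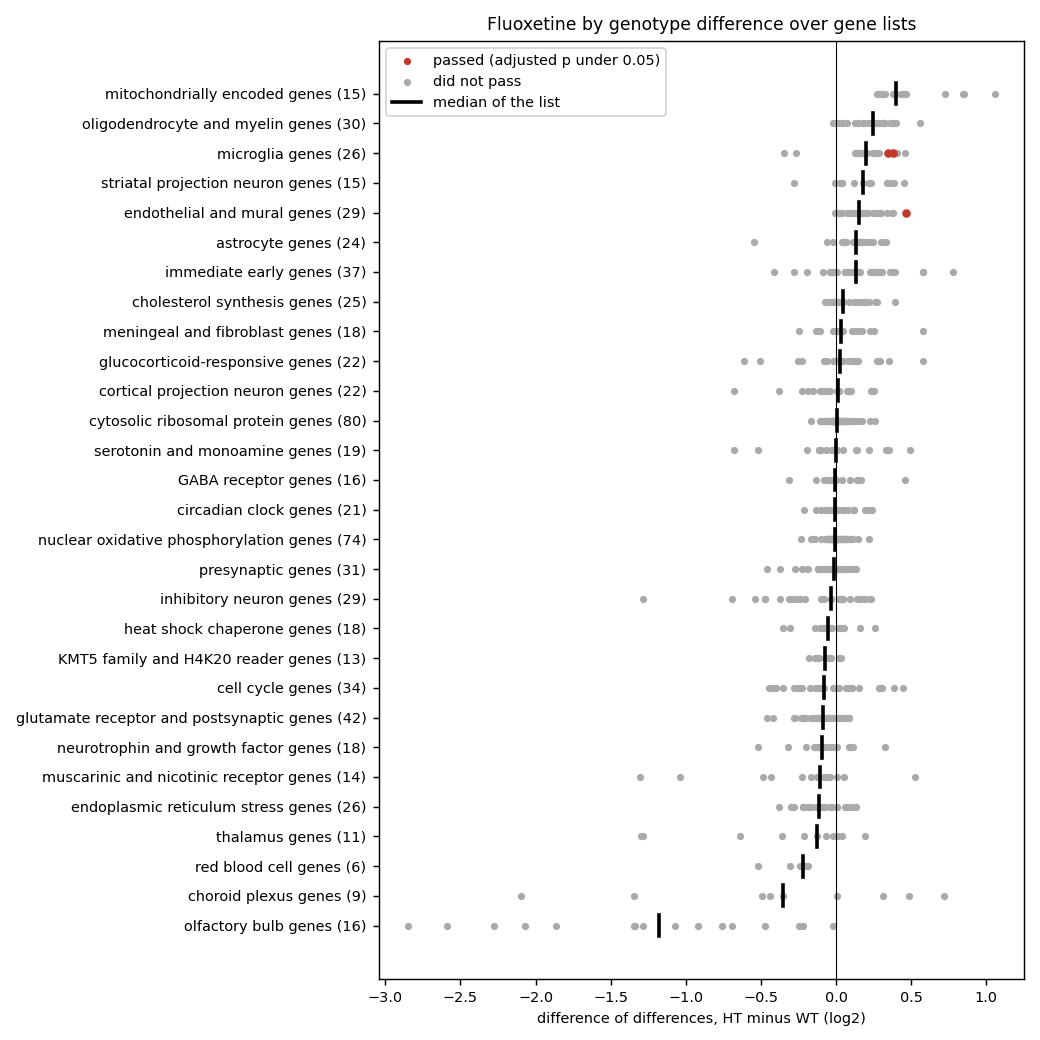
Difference of differences (log2, HT minus WT) of each tested member of 29 gene lists, with the number of tested members in brackets, the list median as a black bar and genes that passed in red. Medians run from 0.40 for mitochondrially encoded genes to -1.18 for olfactory bulb genes, and the 3 red points include Ctss among microglia genes and Slco1a4 among endothelial genes.

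Microglia genes had a median interaction of 0.20, from 0.11 in HT and -0.10 in WT, with 24 of 26 tested members positive. Of these 2 passed, Ctss among them, and 16 members had a positive and 0 a negative unadjusted p under 0.05, against backgrounds of 5.55% and 5.6%. P2ry12, a purinergic receptor of resting microglia, had 1181, 1529 and 1798 normalised counts in HT fluoxetine, against 1059.9, 1204 and 1434 in HT vehicle. The same receptor had 1073, 1381 and 1594 in WT fluoxetine, against 1285, 1443 and 1945 in WT vehicle. P2ry12 rose in HT (0.30, limma adjusted p = 0.00507), where the fluoxetine median lay above the highest vehicle library, with -0.10 in WT and an interaction of 0.40 (adjusted p = 0.108). Ly86, a partner of a Toll-like receptor family member, had 0.46 (adjusted p = 0.104), and the receptors P2ry13 and Gpr34 had 0.40 and 0.39. The defining markers Tmem119 (0.15) and Cx3cr1 (0.19) had smaller values, and P2ry6 (-0.27) and the transcription factor Sall1 (-0.35) were the 2 negative members. In HT 9 members rose and 1 fell, against 6.84% and 5.96% of all genes, and in WT 1 rose and 2 fell, against 3.98% and 3.41%. The engulfment receptor Mertk rose in both (0.55 in HT and 0.40 in WT). Summed over the list, normalised counts were 19415, 21748 and 23556 in HT fluoxetine, against 17359, 19511 and 21002 in HT vehicle, and 17641, 19639 and 21173 in WT fluoxetine, against 18398, 20443 and 23669 in WT vehicle. The summed ranges overlapped in both genotypes, and the part of cell number in these results was not tested.

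Endothelial and mural genes had a median of 0.15, from 0.02 in HT and -0.14 in WT, with 28 of 29 members positive. Slco1a4 passed, and 8 members were positive and 0 negative at an unadjusted p under 0.05, against 5.55% and 5.6% of all genes. In HT 8 members rose, against 6.84% of all genes, and in WT 4 fell, against 3.41%. Slco1c1, a transporter of thyroid hormone at the blood-brain barrier, had an interaction of 0.37 (limma adjusted p = 0.16) and fell in WT (-0.29, adjusted p = 0.0119). The pericyte gene Rgs5 (0.34) and the endothelial gene Itm2a (0.38) did not pass, and the tight junction and adhesion genes Cldn5 (0.13) and Pecam1 (0.15) had values near the list median. Sums over the list were 35377, 39545 and 45743 in HT fluoxetine, against 36069, 39099 and 42363 in HT vehicle, and 35788, 38318 and 39992 in WT fluoxetine, against 34912, 40942 and 45930.1 in WT vehicle. The ranges overlapped in both genotypes, and the WT vehicle median lay above the highest WT fluoxetine library.

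Astrocyte genes had a median of 0.14 (0.09 in HT and -0.05 in WT), with 21 of 24 members positive, 11 of them and no negative member at an unadjusted p under 0.05 (5.55% and 5.6% of all genes), and 0 passing. In HT 7 rose (6.84% of all genes), among them the gap junction genes Gja1 (0.17) and Gjb6 (0.38), glutamine synthetase Glul (0.14) and the zinc transporter Slc39a12 (0.21). In WT 3 fell (3.41% of all genes), the glycogen regulator Ppp1r3c (-0.34, limma adjusted p = 3.83e-05), Clu (-0.21), which encodes clusterin, and the folate enzyme Aldh1l1 (-0.15). Ppp1r3c had an interaction of 0.30 (adjusted p = 0.104), Slc39a12 of 0.33 (adjusted p = 0.123) and Sox9, an astrocyte transcription factor, of 0.34. Gfap, the intermediate filament that marks reactive astrocytes, had -0.02.

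Oligodendrocyte and myelin genes had a median of 0.25 (0.21 in HT and 0.04 in WT), with 28 of 30 members positive but 2 of them at an unadjusted p under 0.05 (5.55% of all genes) and 0 passing. In HT 9 rose (6.84% of all genes) and in WT 0 (3.98%). The myelin genes Mobp (0.59), Mal (0.62) and Mog (0.46) and the aspartoacylase Aspa (0.57) were among the 9, with 0.32, 0.30, 0.07 and 0.17 in WT. Tmem88b had the greatest value of the list in HT, 0.65 (limma adjusted p = 0.00192), and an interaction of 0.56. Pdgfra, a receptor of oligodendrocyte precursors, had 0.26, and the lineage factors Olig1, Olig2, Sox10 and Myrf had 0.15, 0.12, 0.05 and 0.00. Over 18 other settings the list medians ranged from 0.11 to 0.22 for microglia, 0.12 to 0.17 for endothelial and mural and 0.13 to 0.29 for oligodendrocyte genes. The microglia median was 0.13 with the olfactory bulb level in the model, 0.11 with bulb level and exon length slope, and 0.21 with the striatal level. For oligodendrocyte genes it was 0.13 with the striatal level, 0.13 without the 4 libraries lowest in olfactory bulb level, and 0.24 with the bulb level.

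Mitochondrially encoded genes had the highest list median, 0.40 (0.28 in HT and -0.09 in WT). All 15 tested members were positive, 14 of them at an unadjusted p under 0.05 (5.55% of all genes), and 0 passed. In HT 10 of the 15 rose (6.84% of all genes), and in WT none passed in either direction. mt-Nd6, a subunit of respiratory complex I, had 1304, 1710.1 and 1877 normalised counts in HT fluoxetine, against 1054, 1334 and 1531 in HT vehicle. In WT fluoxetine it had 1215, 1602 and 1778, against 1430.2, 1635 and 1826 in WT vehicle. The HT vehicle median was the lowest of the 4, and the ranges overlapped in both genotypes. mt-Nd6 rose in HT (0.34, limma adjusted p = 0.00153), with -0.06 in WT and an interaction of 0.40 (adjusted p = 0.104). mt-Nd3 rose in HT (0.71, adjusted p = 0.00557), and mt-Nd4 and mt-Nd2 had interactions of 0.45 and 0.43 (limma adjusted p = 0.108 and 0.131). Mitochondrial genes have near-identical nuclear copies and some overlap each other, so values of single members are uncertain.

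The share of normalised counts from these genes averaged 7.97 ± 0.66% in HT fluoxetine and 6.75 ± 0.66% in HT vehicle, and 7.39 ± 0.54% in WT fluoxetine and 7.90 ± 0.70% in WT vehicle (SD, n = 10 each). The list median of HT minus WT was 0.10 under fluoxetine and -0.31 under vehicle. With quantile normalization the interaction median was 0.17, the lowest over 18 settings. Nuclear genes of oxidative phosphorylation had a median of -0.01, with 33 of 74 positive. Of the 74, 18 fell in HT, against 5.96% of all genes, and 5 in WT, against 3.41%. Cytosolic ribosomal protein genes had a median of 0.00, with 43 of 80 positive and none at an unadjusted p under 0.05.

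Lists that fluoxetine changed in both genotypes had interactions close to 0 or on the side of a smaller response in HT. Of 37 immediate early genes, which neuronal activity induces, 27 fell in HT (5.96% of all genes) and 29 in WT (3.41%), 25 of them in both, and Klf6 rose in HT. Their median change was -0.52 in HT and -0.69 in WT, and the change was smaller in size in HT in 28 of 37. Dusp1, a phosphatase of mitogen-activated kinases, had 333, 539.6 and 1108 normalised counts in HT fluoxetine, against 435, 838 and 1182 in HT vehicle. WT fluoxetine libraries had 328, 474 and 651, against 845, 916 and 1115 in WT vehicle. The WT groups did not overlap, and the HT groups did. Dusp1 fell in HT (-0.47, limma adjusted p = 0.0314) and in WT (-1.04, adjusted p = 6.08e-06), with an interaction of 0.58 (adjusted p = 0.296). Ccn1 (0.78), Btg2 (0.58) and Klf2 (0.27) had positive interactions too, and 5 members were positive and 0 negative at an unadjusted p under 0.05, against 5.55% and 5.6% of all genes, with 0 passing.

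Of 25 cholesterol synthesis genes 12 fell in HT (5.96% of all genes) and 22 in WT (3.41%), all 12 in both. The medians were -0.15 in HT and -0.24 in WT, 19 changes were smaller in size in HT, 7 interactions were positive and 0 negative at an unadjusted p under 0.05 (5.55% and 5.6% of all genes), and 0 passed. Cyp51, lanosterol demethylase, fell in WT (-0.35, limma adjusted p = 6.94e-06), with -0.10 in HT (adjusted p = 0.21) and an interaction of 0.26 (adjusted p = 0.152). Insig1, the sterol-sensing regulator of this pathway, had 0.27. Endoplasmic reticulum stress genes rose instead, 6 of 26 in HT (6.84% of all genes) and 14 in WT (3.98%), 3 of them in both, with medians of 0.09 and 0.13. Their interactions were negative at an unadjusted p under 0.05 in 8 members and positive in 1, against 5.6% and 5.55% of all genes, and 0 passed. Manf, a secreted factor of the unfolded protein response, rose in WT (0.35, limma adjusted p = 5.87e-05), with 0.12 in HT and an interaction of -0.22 (adjusted p = 0.296). The chaperones Pdia4 (-0.30) and Pdia6 (-0.21) and the degradation factor Herpud1 (-0.19) had negative values. The list median was -0.18 in females and 0.03 in males.

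Glucocorticoid-responsive genes were mixed, with a median interaction of 0.03, 14 of 22 members positive and 0 passing. Zbtb16, a transcription factor that glucocorticoids induce, had 479, 1017 and 1429 normalised counts in HT fluoxetine, against 517, 782 and 922 in HT vehicle. For WT fluoxetine the values were 919.8, 1318 and 1584, against 491, 739 and 867 in WT vehicle. The WT groups were separate, and the HT groups overlapped. Zbtb16 rose in WT (0.88, limma adjusted p = 1.42e-06), with 0.27 in HT (adjusted p = 0.113) and an interaction of -0.61 (adjusted p = 0.132). The receptor chaperone Fkbp5 had -0.51 (adjusted p = 0.344), while Pdk4 (0.35) and Nfkbia (0.27) were positive.

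Serotonin and monoamine genes, the family that holds the drug's direct target, had a median of 0.00, with 10 of 19 positive, 3 positive and 1 negative at an unadjusted p under 0.05 (5.55% and 5.6% of all genes), and 0 passing. The monoamine transporter Slc22a3 had 0.49 (limma adjusted p = 0.225), the oxidases Maob and Maoa had 0.22 and 0.14, and the receptor Htr1f had -0.52. Glutamate receptor and postsynaptic genes had a median of -0.08, with 12 of 42 positive and 8 negative and 0 positive at an unadjusted p under 0.05 (5.6% and 5.55% of all genes). Besides Grik3, these were led by Dlgap4 (-0.21), a scaffold of the postsynaptic density, and the metabotropic receptors Grm4 (-0.46) and Grm8 (-0.28). Presynaptic genes had -0.02 with 13 of 31 positive (-0.11 with the olfactory bulb level in the model). Of these 31, 5 were negative and 1 positive at an unadjusted p under 0.05 (5.6% and 5.55% of all genes), and 0 passed. GABA receptor genes had 0.00, and muscarinic and nicotinic receptor genes -0.10 with 3 of 14 positive. Gabrg1, a glial and neuronal GABA receptor subunit, had 0.46 (adjusted p = 0.152).

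Neurotrophin and growth factor genes had a median of -0.09, with 5 of 18 positive. The insulin-like growth factor receptor gene Igf1r rose in both genotypes (0.24 in HT and 0.38 in WT), the neurotrophin receptors Ntrk2 and Ntrk3 rose in WT (0.16 and 0.24) with 0.04 and 0.04 in HT, and Bdnf had 0.10. Genes of the KMT5 enzymes and of proteins that bind or remove methylated H4K20 had a median of -0.08, with 3 of 13 positive. The demethylase Phf8 (-0.18) and the reader Trp53bp1 (-0.14) were the 2 negative members at an unadjusted p under 0.05 (5.6% of all genes), and none passed. Medians of circadian (-0.01), cell cycle (-0.08), heat shock (-0.05), inhibitory neuron (-0.03) and cortical projection neuron genes (0.01) lay within 0.1 of 0.

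Markers of neighbouring regions and other tissues had medians on both sides of 0. Olfactory bulb genes had the lowest median, -1.18 (-0.76 in HT and 0.43 in WT), with 0 of 16 positive, 4 negative at an unadjusted p under 0.05 (5.6% of all genes), and 0 passing in the interaction or in either genotype. Their sums were 9353, 15935 and 43676 in HT fluoxetine, against 13442, 20517 and 32400.1 in HT vehicle, and 8597, 17694 and 39712 in WT fluoxetine, against 8879, 17524 and 27553 in WT vehicle. All 4 groups overlapped over a wide range. With the olfactory bulb level in the model the list median was 0.14, a move that adjusting for 4 olfactory bulb genes largely fixes. In the same fit the medians of thalamus and choroid plexus genes, negative without that level, were 0.08 and 0.13. Striatal projection neuron genes had 0.18 with 13 of 15 positive (0.35 in females and -0.04 in males). Their sums had medians of 16766 in HT fluoxetine, 16767 in HT vehicle, 16853 in WT fluoxetine and 16400 in WT vehicle. The highest HT fluoxetine library had 27961. With the striatal level, a mean over this same list, in the model the median was 0.01, which that choice largely fixes. Thalamus genes had -0.13, meningeal and fibroblast genes 0.04 and red blood cell genes -0.22 with 0 of 6 positive. Choroid plexus genes had -0.35 over 9 tested members, with Ttr at -2.09 and Aqp1 at -1.35. At a mean of at least 100 normalised counts, which Ttr alone reaches, the choroid plexus median was -2.09, and without the 4 libraries lowest in olfactory bulb level it was 0.07. The part of tissue makeup in the results above was not tested beyond the fits with the olfactory bulb and striatal levels.

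Both sexes had positive values for the 6 genes, whose interaction is the mean of the 2 values. Slco1a4 had an interaction of 0.58 in females and 0.36 in males, Mpeg1 of 0.26 in females and 0.39 in males and Ctss of 0.21 in females and 0.48 in males. Nr2e1 had 0.44 in females and 0.52 in males, S1pr1 0.38 in females and 0.46 in males and Gpc5 0.21 in females and 0.32 in males. Within females alone 0 genes passed by limma (991 at an unadjusted p under 0.05, 0 by edgeR and 4 by DESeq2), and within males 0 (1135 at an unadjusted p under 0.05, 0 by edgeR and 1 by DESeq2). The smallest adjusted p was 0.114 in females and 0.292 in males by limma. The difference between the sexes in the interaction passed in 0 genes by limma (449 at an unadjusted p under 0.05, 0 by edgeR and 1 by DESeq2), with a smallest adjusted p of 0.999. For Slco1a4 that difference was 0.22 (SE 0.163, adjusted p = 0.999). The 3 genes with the smallest p were Sgpp2, a sphingosine-1-phosphate phosphatase (0.47 in females and -0.40 in males), the dolichol kinase gene Dolk (0.22 in females and -0.22 in males) and the exocyst subunit Exoc2 (0.16 in females and -0.19 in males), each at an adjusted p of 0.999. Mitochondrially encoded genes had medians of 0.35 in females and 0.47 in males, with all 15 positive in both, and microglia genes 0.11 and 0.28, with the 16 of unadjusted p under 0.05 positive in both, which that choice largely fixes.

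**Figure D5:**
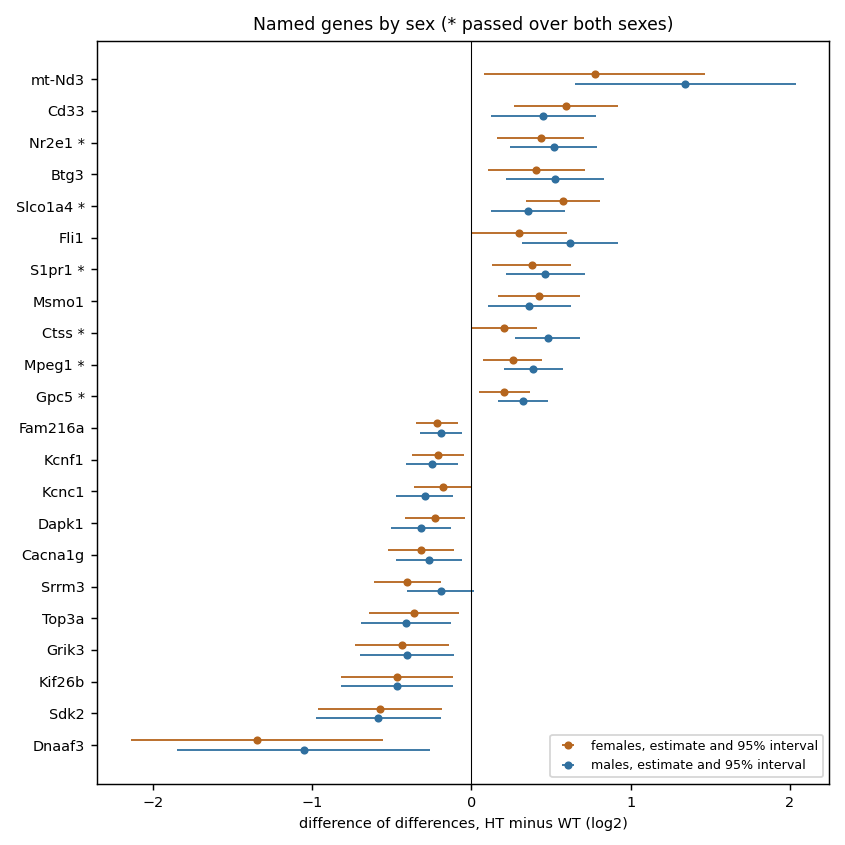
Difference of differences (log2, HT minus WT) in females and males with 95% confidence intervals for 22 of the 24 genes of smallest p, 11 in each direction, with an asterisk on those that passed over both sexes. Every gene has the same sign in both sexes, by the rule that chose them, and the intervals of females and males overlap.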

How the data were processed

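RNA sequencing libraries (stranded, poly(A)-selected, per the labels' protocols) came from prefrontal cortex. The authors deposited 1 table of a normalised signal per gene and library, here called normalised counts. Salmon 0.11.2, R 3.6.0, DESeq2 1.19.11 and GRCm38 stand in the submitters' processing notes. The annotation release and the normalization steps are not given in the sources used here. Every nonzero value was a whole multiple of 1 step per library (100% within a tolerance of 0.01), as counts divided by 1 size factor would be. Count tests used the recovered reads of 54 of 58 libraries. The other 4 were HT vehicle female 2, male 1 and male 5, and HT lithium male 3. Their steps lay close to 1 (0.990, 1.009, 0.993 and 1.011), and count tests left them out, although whole multiples held there too.

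The values are not counts, so limma 3.58.1 (R 4.3.3) with a variance trend was run on log2(value + 1), where the change of low genes is understated. Genes with a mean of at least 10 were kept and 1419 left out. The 12 means of genotype, treatment and sex were fitted over all 58 libraries, contrasts averaged both sexes, and Benjamini-Hochberg adjustment ran over all 16669 genes, with adjusted p under 0.05 as the threshold for "passed", "rose" and "fell". Alternatives included edgeR 4.0.16 and DESeq2 1.42.0 on the recovered reads of 54 libraries. The model code was tested on simulated data. Replicates were compared for duplicates: in 80 pairs the difference was 5.27 to 45.6 times what sampling noise gives, so each was counted.

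Symbols (18077 of 18088 genes) and positions came from the supplied GRCm38 annotation. Groups came from the labels alone. The genes named were Kmt5b, the 12 of smallest p in each direction with the same sign in both sexes, 8 of the shared response, 3 for the sexes and 4 per list. Some genes that these rules pick are not reported here. Further list members were chosen after their values were seen. The genes, gene lists and comparisons were all chosen with earlier results of these data known. Lists are described by counts and medians, with no test.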

Additional observations from a re-analysis of the deposited data

Results flagged for a closer look

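In 7 of 104 groups of 10 libraries (a gene or library measure in HT or WT under fluoxetine or vehicle, both sexes together), 1 library lay far from the other 9 by Dixon's test, which chance does in about 1 in 20 groups. Among genes with a positive interaction these were Mpeg1 in WT vehicle male 1, with 936 normalised counts (nearest other library 865), Gpc5 in WT fluoxetine male 3, with 1152 (nearest 1052), mt-Nd3 in WT vehicle male 2, with 5728 (nearest 3573), and Msmo1 in WT fluoxetine male 1, with 1683 (nearest 2018). Among genes with a negative interaction these were Fam216a in HT vehicle male 2, with 1109.8 (nearest 1217) and Kcnc1 in WT fluoxetine male 1, with 5650.4 (nearest 5040.4). The olfactory bulb level was -2.32 in WT fluoxetine male 2, and the nearest of the other WT fluoxetine libraries had -0.319. The striatal level was not among the groups put to this test, so its absence from the 7 cases is no result. It was 2.96 in HT fluoxetine female 2 (nearest other HT fluoxetine library 0.976). In WT vehicle female 5 it was 1.80 (nearest other WT vehicle library 0.112). WT fluoxetine male 1 stood apart in 2 of the 7 cases.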

How the results depend on the processing

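The interaction passed in 7 genes as reported. The count was 6 or 7 with quantile normalization, no filter, a mean of at least 100 and pseudocounts of 0.5 and 10. It was 5 by edgeR on 54 libraries, 4 of them among the 7. It was 1 (Slco1a4) without the variance trend and with the olfactory bulb level, the striatal level, or the bulb level and exon length slope as covariates. It was 0 in the 40 libraries alone, without the 4 libraries lowest in bulb level and by limma on 54 libraries, and 12 with the exon length slope. By DESeq2 it was 17, and 167 with array weights (91 higher and 76 lower), each time including all 7. DESeq2 gave 4 genes in females, 1 in males and 1 for the difference between sexes, against 0 by limma. The combined covariates and the bulb-based sets of libraries were chosen after seeing the data.

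Without any 1 library the interaction count ranged from 1 to 46, females from 0 to 2, males from 0 to 8, and the difference between sexes from 0 to 0. It was 46 without HT fluoxetine male 4, 25 without HT fluoxetine female 3 and 11 without HT vehicle female 2. It was 2 to 4 without HT vehicle female 5 or WT fluoxetine female 1, 4 or 5. It was 1 without HT fluoxetine female 1, 4 or 5 or male 1, 3 or 5, HT vehicle female 4 or male 1 or 4, WT fluoxetine female 3 or male 1 or 4, or WT vehicle female 1 or 5 or male 1, 4 or 5.

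For fluoxetine minus vehicle in HT 2134 genes passed, and for fluoxetine minus vehicle in WT 1232. The HT count ranged from 1353 (without HT vehicle female 3) to 2276 without any 1 library, and the WT count from 668 (without WT vehicle female 4) to 1629, with 724 and 746 without WT vehicle female 1 and male 5. In HT it was 3392 with array weights, 4095 with the bulb level, 3820 with bulb level and slope, and on 54 libraries 789 with limma, 817 with edgeR and 1003 with DESeq2, fits that leave out 3 of 10 HT vehicle libraries. In WT it was 273 with the slope and 363 with slope and bulb level. The Kmt5b interaction turned from -0.08 to 0.0037 with the bulb level and 0.0229 with both covariates. The causes were not tested.

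Replicate numbers are shared across groups but did not pair the libraries: over 60 same-numbered pairs r lay between -0.408 and 0.42, over 0.1 in 15, and 11 of 40 libraries correlated best with their own number. With the replicate block the interaction count was 6, the count for fluoxetine minus vehicle in HT 1841 and for fluoxetine minus vehicle in WT 990. Slco1a4 kept a value of 0.41 to 0.49 in every setting, with adjusted p from 0.00278 to 0.121. Depth limits Dnaaf3, at a mean of 17.5 normalised counts.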
